A study of Mus musculus with 12 samples.

Results

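The 8 genes described here encode transcription factors of cartilage and bone: Sox9, Sox5 and Sox6 of the SOX family, Runx1, Runx2 and Runx3 of the RUNX family, Sp7 (osterix) and Nkx3-2. They were taken by gene symbol from a table of read counts for 23284 genes in mouse mandibular condylar fibrocartilage, which caps the bone of the lower jaw at its joint. All 8 were in the table, and all 8 passed the filter on low counts, as did 14832 genes in all. RNA came from all cells of the tissue of female C57BL/6 mice, which were ovariectomized at 16 weeks of age, carried a pellet for 1 week and were sampled at 17 weeks. The ovariectomy was shared by all groups, so the placebo groups had no ovarian source of estrogen. The 12 libraries fell into 4 groups: ERalphaKO mice, which lack estrogen receptor alpha, given 17β-estradiol (E2; n = 3), ERalphaKO mice given placebo (n = 4), WT mice given E2 (n = 3) and WT mice given placebo (n = 2). The E2 pellet held 0.01 mg for release over 60 days. The labels do not say which part of Esr1 was deleted or that each library came from a separate animal, so the p-values measure the spread between these libraries. The comparisons ask how E2 acts through this receptor on gene expression in the condyle.

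SOX9 is the factor that commits progenitor cells to cartilage, and SOX5 and SOX6 act with it to switch on genes of the cartilage matrix such as Col2a1 and Acan. RUNX2 is required for osteoblasts to form and drives the late maturation of chondrocytes, and SP7 acts downstream of it in the bone lineage. RUNX1 and RUNX3 bind the same DNA motif, and NKX3-2 is known in chondrocytes for holding back Runx2 and maturation. Condylar cartilage is a secondary cartilage whose cells descend from a fibrous layer of progenitors, and SOX9 and RUNX2 are found together in its cells.

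The RUNX genes are known to carry RUNX motifs at the more distant of their start sites, and the RefSeq windows (build GRCm38.p6, 250 bases before to 50 after a start) are shown because they mark what the family shares and the counts per gene do not resolve. RefSeq held windows for 6 of the 8 genes. No window was printed for Sox9 and Sp7. The capitals mark a run of 18 bases, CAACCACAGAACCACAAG, present in the most upstream window of Runx1 (chr16:92826025-92826324, minus strand), of Runx2 (chr17:44814578-44814877, minus strand) and of Runx3 (chr4:135120395-135120694, plus strand).
Runx1: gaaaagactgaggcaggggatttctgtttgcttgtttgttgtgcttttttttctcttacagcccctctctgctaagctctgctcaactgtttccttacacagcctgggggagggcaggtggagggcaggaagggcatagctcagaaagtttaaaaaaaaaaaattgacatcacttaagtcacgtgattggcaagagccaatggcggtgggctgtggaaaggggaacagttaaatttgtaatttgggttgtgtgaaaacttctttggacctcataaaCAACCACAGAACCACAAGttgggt
Runx2: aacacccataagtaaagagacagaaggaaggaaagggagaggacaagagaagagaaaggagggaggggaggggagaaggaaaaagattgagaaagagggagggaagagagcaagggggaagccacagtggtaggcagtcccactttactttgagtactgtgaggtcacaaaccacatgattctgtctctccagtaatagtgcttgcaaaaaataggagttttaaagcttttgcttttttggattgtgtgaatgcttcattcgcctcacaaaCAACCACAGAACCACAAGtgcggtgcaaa
Runx3: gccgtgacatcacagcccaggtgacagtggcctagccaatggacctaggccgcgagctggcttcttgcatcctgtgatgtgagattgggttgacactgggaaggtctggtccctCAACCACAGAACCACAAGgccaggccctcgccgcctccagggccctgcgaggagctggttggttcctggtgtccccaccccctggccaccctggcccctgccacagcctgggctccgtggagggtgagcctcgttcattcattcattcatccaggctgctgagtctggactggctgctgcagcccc
The run lay 27 to 44 bases after the start of Runx1, 22 to 39 bases after that of Runx2, and 136 to 119 bases before that of Runx3. It stood in 4 of 32851 windows in the table, or 0.0122%, and the fourth window belonged to the predicted gene Gm16225. It holds the RUNX motif TGTGGT 2 times on its reverse strand (ACCACA). Counted on both strands, that motif occurred 2 times in the window of Runx1, 3 times in that of Runx2 and 2 times in that of Runx3. Of all windows 16.8% held it at least 1 time, 1.81% at least 2 times and 0.183% at least 3 times. The matches in the printed windows of Runx1 and Runx3 are those of the run, so their counts follow from it. The second window of Runx1 and that of Runx3 held 0 matches. GGTCA, either arm of the estrogen response element, was found in a window of Runx2 and in 2 windows of Sox6, against 40.5% of all windows. The full palindromic element was in 0.07% of all windows and in none of those of the 6 genes. A match describes letters in a window and is not a binding site.

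The libraries held 9696434 to 28750636 counts. Values are given on the counts-per-million scale (CPM) after scaling by trimmed mean of M values (TMM), log2 fold changes come from the quasi-likelihood test of edgeR with their standard error (SE), and a gene is called changed at an adjusted p under 0.05. Esr1, the targeted gene, was at 5.66, 5.78 and 4.55 CPM in ERalphaKO E2 libraries, 3.65, 5.68, 4.03 and 5.15 CPM in ERalphaKO placebo libraries, 10.6, 8.52 and 12 CPM in WT E2 libraries and 17.5 and 14.2 CPM in WT placebo libraries. It fell under placebo in ERalphaKO (log2 fold change −1.77 ± 0.20 SE, edgeR adjusted p = 0.0252), a call that was lost without either WT placebo library, WT E2 replicate 1 or ERalphaKO placebo replicate 1, 3 or 4 (adjusted p 0.0659 to 0.69). Over the 18 alternative runs described below, its log2 fold change under placebo stayed between −1.92 and −1.62. In the authors' deposited table for ERalphaKO placebo over WT placebo it was −1.67 ± 0.24 (adjusted p = 1.98e-09). All 7 ERalphaKO libraries were below all 5 WT libraries, a placing found for 0.654% of genes tested. Of the 11 fibrocartilage and chondrocyte markers in the table, 10 or 11 were detected in each library, with Matn1 at 0 in 6 libraries. Their summed level was 4430 to 26500 CPM, against 79400 to 123000 CPM for 7 fibroblast and tendon markers. Osteoblast and osteocyte markers (8 genes, 4140 to 10300 CPM) and osteoclast markers (6 in the table, 6740 to 10200 CPM) were also present in every library. ERalphaKO placebo replicate 3 stood apart, with 4620 CPM of skeletal muscle markers and 15900 CPM of granulocyte markers, the highest of the 12 libraries for both. ERalphaKO E2 replicate 1 had the next highest granulocyte sum, 6870 CPM. In bulk tissue, fewer cells of a type and less RNA of a gene per cell cannot be told apart.

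The 8 genes differed far more from each other than between groups. Set per kilobase of exon, which allows genes to be compared, Sp7 was the most abundant at 107 ± 16.0 CPM per kb (mean ± SD over the 12 libraries) and Runx2 followed at 38.2 ± 6.40 CPM per kb. Sox9 had 20.4 ± 6.06, Runx3 10.9 ± 1.79 and Runx1 7.10 ± 0.869 CPM per kb. Sox6 with 5.10 ± 1.02 and Sox5 with 4.95 ± 0.991 CPM per kb came next, and Nkx3-2 was lowest with 0.685 ± 0.364 CPM per kb. Each gene was above the next in all 12 libraries, except that Runx3 was above Runx1 and Runx1 above Sox6 in 11 of 12, and Sox6 above Sox5 in 8 of 12. The last pair did not differ beyond its spread. Exon lengths were those of all exons of a gene merged in GENCODE M21, 3398 bases for Sp7 and 8837 for Runx2 for example. They were not those the counts were made with, and the order depends on them. Before the division by length Sp7 averaged 364 CPM and Runx2 338 CPM, and Runx1, at 85.3 CPM, was above Runx3, at 54.6 CPM.

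**Figure D1:**
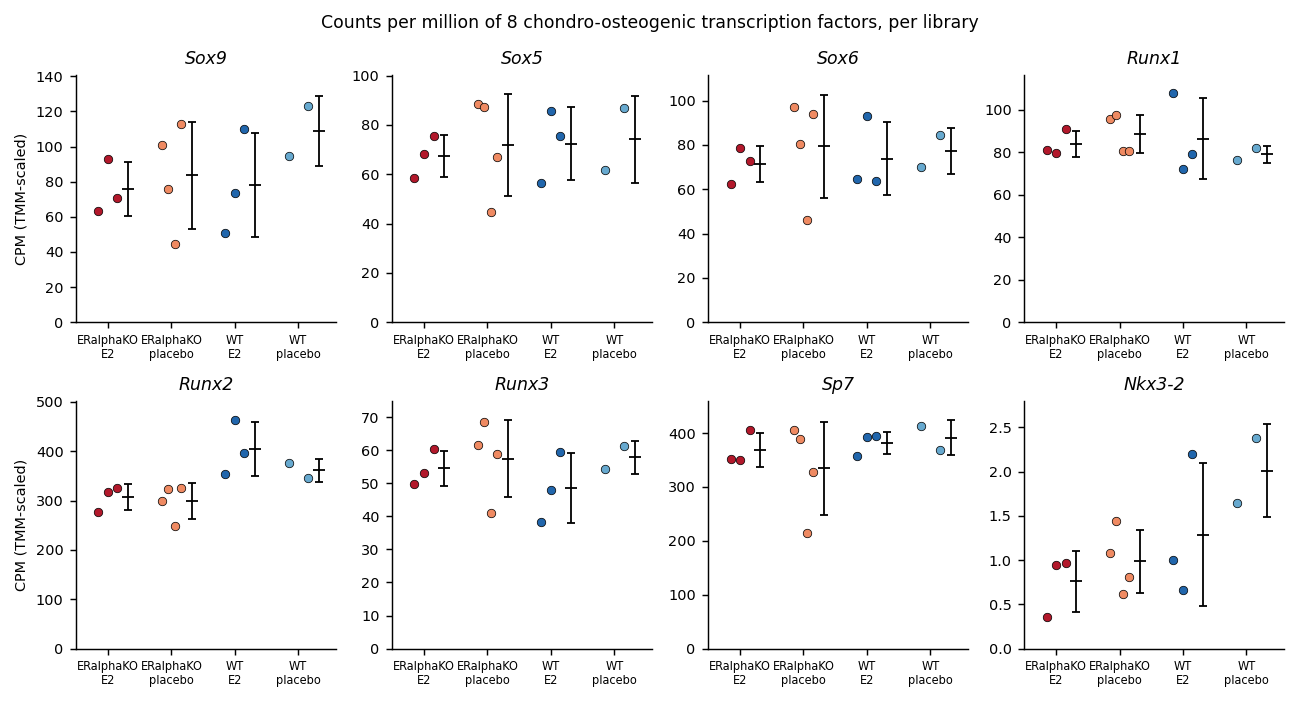
Level of each gene per library in CPM (TMM-scaled, linear axes from 0), by group; points are libraries, and the bar beside them is the mean with its SD. The 7 ERalphaKO libraries of Runx2 lie between 248 and 325 CPM, below the 5 WT libraries at 345 to 463 CPM, while the groups of Sox5, Sox6, Runx1, Runx3 and Sp7 overlap.

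Sox9 varied widely within groups. It was at 63.5, 93.2 and 71 CPM in ERalphaKO E2 libraries, 101, 75.7, 44.6 and 113 CPM in ERalphaKO placebo libraries, 51, 73.7 and 110 CPM in WT E2 libraries and 94.9 and 123 CPM in WT placebo libraries. The group means were 75.9 ± 15.5 (SD, n = 3), 83.7 ± 30.4 (n = 4), 78.1 ± 29.5 (n = 3) and 109 ± 19.6 CPM (n = 2) in that order. Both WT placebo libraries were above all 3 ERalphaKO E2 libraries, a lower placing without overlap that 13.2% of genes tested shared, and every other pair of groups overlapped. E2 over placebo in WT gave a log2 fold change of −0.48 ± 0.38 (95% interval −1.31 to 0.35, edgeR adjusted p = 0.812). ERalphaKO over WT under E2 gave −0.04 ± 0.34, with an interval of −0.80 to 0.71 that leaves room for changes of either sign.

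Sox5 and Sox6, the partners of SOX9 that hold no activation domain of their own, had similar group means. These were 67.3 to 74.1 CPM for Sox5 and 71.4 to 79.3 CPM for Sox6. Sox5 was at 58.5, 68.1 and 75.3 CPM in ERalphaKO E2 libraries, 88.3, 87.1, 44.6 and 67.1 CPM in ERalphaKO placebo libraries, 56.3, 85.6 and 75.3 CPM in WT E2 libraries and 61.6 and 86.7 CPM in WT placebo libraries. Sox6 was at 62.5, 78.7 and 72.9 CPM in ERalphaKO E2 libraries, 96.9, 80.6, 46.1 and 93.7 CPM in ERalphaKO placebo libraries, 64.8, 92.9 and 63.8 CPM in WT E2 libraries and 69.9 and 84.4 CPM in WT placebo libraries. The groups overlapped for both genes, and the lowest library of the 12 was the same for both, ERalphaKO placebo replicate 3. Over the comparisons of E2 with placebo in each genotype and of genotype under each treatment, the log2 fold changes of Sox5 were −0.11 to −0.04 and those of Sox6 were −0.15 to 0.04. Their SE was 0.23 to 0.28. The 95% intervals for genotype under E2, −0.66 to 0.45 for Sox5 and −0.60 to 0.50 for Sox6, leave room for changes of either sign.

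Runx2 was the member whose groups separated by genotype. It was at 277, 318 and 325 CPM in ERalphaKO E2 libraries, 300, 323, 248 and 325 CPM in ERalphaKO placebo libraries, 354, 463 and 397 CPM in WT E2 libraries and 377 and 345 CPM in WT placebo libraries. All 7 ERalphaKO libraries were below all 5 WT libraries, under either treatment. The means were 307 ± 26.3 (SD, n = 3) CPM in ERalphaKO E2, 299 ± 36.0 (n = 4) in ERalphaKO placebo, 405 ± 55.0 (n = 3) in WT E2 and 361 ± 22.2 CPM (n = 2) in WT placebo libraries. With plain total counts in place of TMM scaling the separation remained but was narrow. The ERalphaKO libraries were then at 262 to 325 CPM and the WT libraries at 328 to 455 CPM.

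The difference in Runx2 did not pass the threshold in any comparison by edgeR. ERalphaKO over WT was −0.40 ± 0.13 under E2 (95% interval −0.69 to −0.11, unadjusted p = 0.0107, edgeR adjusted p = 0.232), or 24.2% lower. Under placebo it was −0.27 ± 0.14 (interval −0.57 to 0.03, edgeR adjusted p = 0.604), or 17.1% lower, and −0.19 without ERalphaKO placebo replicate 3. The groups did not overlap in either comparison, but being lower without overlap was common in these small groups, at 8.94% of genes tested under E2 and 10.6% under placebo. The log2 E2 effect was 0.17 ± 0.15 in WT and 0.04 ± 0.12 in ERalphaKO, and their difference of −0.13 ± 0.19 had an edgeR adjusted p of 0.921.

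Other comparisons for Runx2 were chosen after seeing the data. Averaged over treatments, ERalphaKO over WT was −0.34 ± 0.09 (95% interval −0.54 to −0.13), or 20.7% lower, with an unadjusted p of 0.00454 and an edgeR adjusted p of 0.142, and 472 genes had a smaller p. Lower levels in all 7 ERalphaKO libraries than in all 5 WT libraries were found for 97 genes, or 0.654% of those tested, and Runx2 entered this comparison because that separation had been seen. ERalphaKO placebo over WT E2, the pair of groups farthest apart in mean, gave −0.44 ± 0.12 (interval −0.70 to −0.17, edgeR adjusted p = 0.0894). DESeq2 on the same counts called Runx2 in both, with an adjusted p of 0.0228 for the average, where it called 3.99% of genes, and 0.0119 for ERalphaKO placebo over WT E2, where it called 6.84%. In the authors' deposited table for ERalphaKO placebo over WT E2, Runx2 stood at −0.43 ± 0.14 with an adjusted p of 0.0408, among 932 genes or 6.34% past the threshold. In the authors' deposited table for ERalphaKO E2 over WT E2 it stood at −0.39 ± 0.13 with an adjusted p of 0.0769, where 3.75% of genes were past the threshold. In the authors' deposited tables it stood at −0.26 ± 0.14 for ERalphaKO placebo over WT placebo (adjusted p = 0.652) and at −0.23 ± 0.11 for ERalphaKO E2 over WT placebo (adjusted p = 0.587). Without ERalphaKO placebo replicate 3, its lowest library, the average was −0.30 with an edgeR adjusted p of 0.119.

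Markers of several cell types also differed between genotypes. Summed osteoblast and osteocyte markers were at 5550 to 5920 CPM in ERalphaKO E2 libraries and 6180 to 10300 CPM in WT E2 libraries, and at 4140 to 5700 CPM in ERalphaKO placebo libraries and 5520 to 5570 CPM in WT placebo libraries. Summed chondrocyte and fibrocartilage markers were at 4430 to 7810 CPM in ERalphaKO E2 libraries and 9700 to 26500 CPM in WT E2 libraries, and at 4880 to 10500 CPM in ERalphaKO placebo libraries and 8540 to 13300 CPM in WT placebo libraries. Under E2 both sums were lower in every ERalphaKO library, and under placebo both overlapped. The osteoblast and osteocyte list was nevertheless split under E2, with 4 of its 8 genes above 0 and 4 below. Its median log2 fold change was −0.11, and Ibsp averaged 2230 CPM in ERalphaKO E2 and 4650 CPM in WT E2 libraries. Under E2 summed fibroblast and tendon markers were instead higher in every ERalphaKO library, at 108000 to 119000 CPM in ERalphaKO E2 libraries and 81700 to 95100 CPM in WT E2 libraries, while skeletal muscle markers were lower, at 7.77 to 42.2 CPM in ERalphaKO E2 libraries and 171 to 883 CPM in WT E2 libraries. Under placebo the fibroblast and tendon sums were 79400 to 113000 CPM in ERalphaKO libraries and 116000 to 123000 CPM in WT libraries, without overlap and lower in ERalphaKO, and the muscle sums overlapped. Summed lymphocyte markers were at 16.2 to 118 CPM in ERalphaKO E2 libraries and 12 to 22 CPM in WT E2 libraries, which overlapped, and at 82.5 to 200 CPM in ERalphaKO placebo libraries and 10.8 to 14.6 CPM in WT placebo libraries, which did not. Granulocyte and macrophage sums overlapped between genotypes under either treatment. All 10 granulocyte markers were nevertheless above 0 in ERalphaKO over WT. Their median log2 fold change was 2.68 under E2 and 5.09 under placebo. Of 8 macrophage markers, 7 were below 0 under E2 (median −0.82) and 6 were above 0 under placebo (median 0.06). With muscle markers as a covariate Runx2 under E2 was −0.49 (edgeR adjusted p = 0.237). The part of the other cell types in the lower Runx2 was not tested.

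The libraries of Runx1 and Runx3 did not separate by genotype as those of Runx2 did. Runx1, best known from blood stem cells and also used by skeletal progenitors, was at 81, 79.9 and 91 CPM in ERalphaKO E2 libraries, 95.6, 97.4, 80.8 and 80.7 CPM in ERalphaKO placebo libraries, 108, 72.2 and 79.3 CPM in WT E2 libraries and 76.3 and 81.8 CPM in WT placebo libraries. Its groups overlapped, with WT E2 replicate 1 the highest library. Runx3, which works with Runx2 in chondrocyte maturation, was at 49.9, 53.2 and 60.5 CPM in ERalphaKO E2 libraries, 61.5, 68.6, 41.1 and 58.8 CPM in ERalphaKO placebo libraries, 38.3, 47.9 and 59.6 CPM in WT E2 libraries and 54.3 and 61.4 CPM in WT placebo libraries. Its groups overlapped too. ERalphaKO over WT under E2 was −0.04 ± 0.14 for Runx1 (95% interval −0.36 to 0.27) and 0.17 ± 0.19 for Runx3 (interval −0.25 to 0.59). Both intervals overlapped that of Runx2, −0.69 to −0.11, and no test compared the genes with each other.

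Sp7 was at 351, 350 and 405 CPM in ERalphaKO E2 libraries, 406, 389, 214 and 328 CPM in ERalphaKO placebo libraries, 357, 392 and 395 CPM in WT E2 libraries and 414 and 369 CPM in WT placebo libraries. A single library was low, ERalphaKO placebo replicate 3, and the groups overlapped. ERalphaKO over WT was −0.05 ± 0.19 under E2 (95% interval −0.48 to 0.38). Under placebo it was −0.23 ± 0.20 (interval −0.68 to 0.22, edgeR adjusted p = 0.792), and −0.07 without ERalphaKO placebo replicate 3.

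Nkx3-2 was scarce, with 6, 9 and 19 counts in ERalphaKO E2 libraries, 18, 32, 16 and 20 counts in ERalphaKO placebo libraries, 20, 14 and 43 counts in WT E2 libraries and 28 and 65 counts in WT placebo libraries. In CPM it was at 0.361, 0.946 and 0.971 in ERalphaKO E2, 1.08, 1.44, 0.62 and 0.804 in ERalphaKO placebo, 1, 0.659 and 2.2 in WT E2 and 1.64 and 2.38 in WT placebo libraries. Both WT placebo libraries were above every ERalphaKO library, while the WT E2 libraries, at 0.659 to 2.2 CPM, overlapped the other groups. Such a lower placing without overlap was common, at 10.6% of genes tested for ERalphaKO placebo and 13.2% for ERalphaKO E2, each against WT placebo. ERalphaKO over WT under placebo was −1.04 ± 0.51 (95% interval −2.17 to 0.10, edgeR adjusted p = 0.598), and under E2 it was −0.77 ± 0.53 (interval −1.94 to 0.40, edgeR adjusted p = 0.647). ERalphaKO E2 over WT placebo, a comparison chosen after seeing the data, was −1.42 ± 0.57 (unadjusted p = 0.0303, edgeR adjusted p = 0.808). Averaged over treatments, chosen likewise, ERalphaKO over WT was −0.90 ± 0.37 (95% interval −1.72 to −0.09). There the edgeR unadjusted p of Nkx3-2 was 0.0333 and its adjusted p 0.312. With so few counts, a change of the size of that in Runx2 was not detectable for Nkx3-2.

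**Figure D2:**
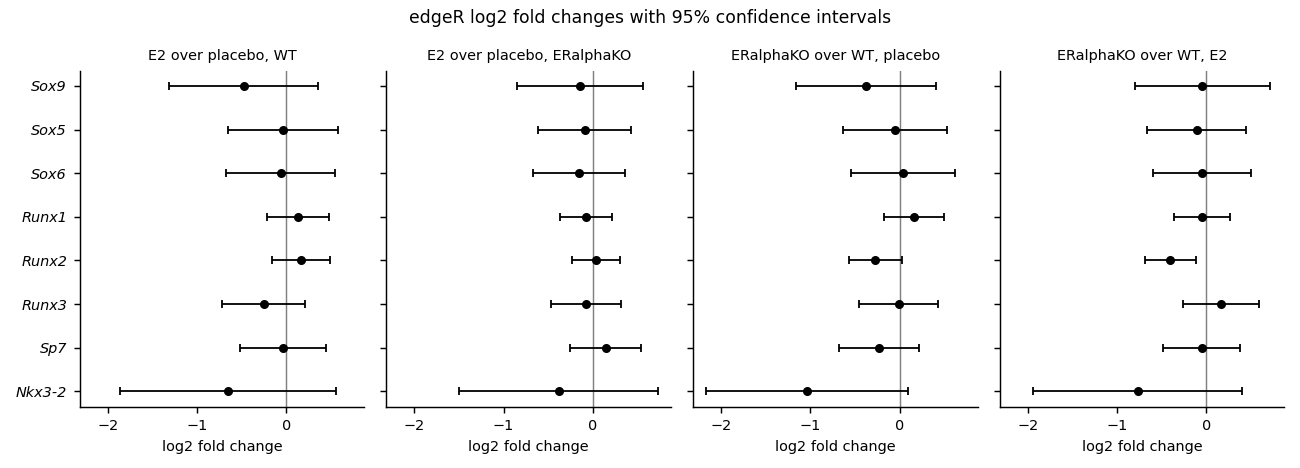
Log2 fold changes from edgeR (x axis) of the 8 genes (rows) in 4 comparisons, points with 95% confidence intervals. The interval of Runx2 in ERalphaKO over WT under E2, −0.69 to −0.11, does not include 0, and no gene has an adjusted p under the threshold.

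Across the whole set, edgeR called 0 of 8 genes in each of the 5 comparisons of the design. For E2 over placebo in WT 0.458% of all genes tested were called, for E2 over placebo in ERalphaKO 0%, for ERalphaKO over WT under placebo 0.0135%, for ERalphaKO over WT under E2 1.1% and for the E2 effect in ERalphaKO minus that in WT 0.0539%. A count of 0 in 8 is near shares this low and says little about the set. At an unadjusted p under 0.05 there were 0 members for E2 in WT (8.14% of all genes), 0 for E2 in ERalphaKO (5.7%), 0 for genotype under placebo (8.93%), 1 for genotype under E2, Runx2 (11.5%), and 0 for the difference of the E2 effects (6.78%). DESeq2 also called 0 of the 8 in all 5 comparisons. The median log2 fold change of the 8 was −0.05 in the E2 effect in WT, −0.08 in the E2 effect in ERalphaKO, −0.14 for genotype under placebo and −0.05 for genotype under E2, where the medians of all genes were −0.00, 0.00, 0.01 and −0.00 in the same order. For the E2 effect in ERalphaKO no gene of the table was called by edgeR, 846 were under 0.05 before adjustment, and 5 were called by DESeq2. In the comparisons chosen after seeing the data edgeR likewise called 0 of 8, where 0.978% of genes were called for genotype averaged over treatments, 2.63% for ERalphaKO placebo over WT E2 and 0.00674% for ERalphaKO E2 over WT placebo. At an unadjusted p under 0.05 the average had 2 members, Runx2 and Nkx3-2 (14% of all genes). ERalphaKO placebo over WT E2 had 1, Runx2 (15.5%), and ERalphaKO E2 over WT placebo had 1, Nkx3-2 (6.09%).

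Within groups, most of the genes were high or low in the same libraries. ERalphaKO placebo replicate 3 was the lowest library of its group for 7 of the 8 genes and the lowest of all 12 for 5. Relative to the mean of the other 3 libraries of its group, it had 46.1% of their Sox9 level, 50.9% of Sox6, 55.2% of Sox5, 55.9% of Nkx3-2, 57.2% of Sp7, 65.3% of Runx3 and 78.4% of Runx2. Runx1 alone was close to them, at 88.6%. The muscle and granulocyte markers of this library are given above, and their part in its low values was not tested. Pearson's r of the deviations from the group means was positive in all 21 pairs of genes other than Runx1, with a median of 0.70 and a range of 0.19 to 0.86 over the 12 libraries. In the 7 pairs with Runx1 it was −0.27 to 0.32, with 4 positive. Setting Runx1 apart was not part of the design, and pairs of other genes were not set beside these. Without ERalphaKO placebo replicate 3 the median of the 21 pairs was 0.39 and 18 were positive, and the 7 pairs with Runx1 ranged from −0.62 to 0.25, with a median of −0.30 and 2 positive. These values describe 12 libraries, and the genes of a library share its depth and scaling.

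**Figure D3:**
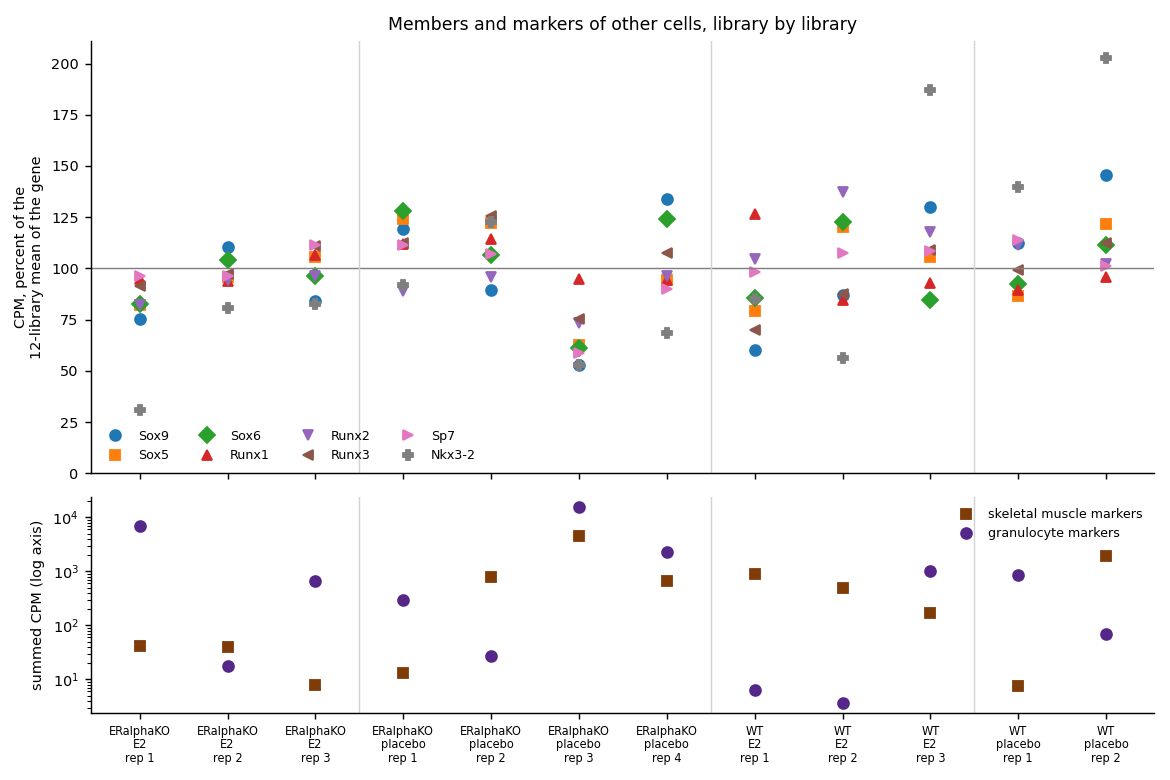
Upper panel, level of each gene per library as a percentage of its mean over the 12 libraries; lower panel, summed CPM of skeletal muscle and granulocyte markers on a log axis. In ERalphaKO placebo replicate 3 the genes other than Runx1 are low together, and both marker sums, 4620 and 15900 CPM, are at their highest.

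The balance of Sox9 to Runx2, which contrasts a chondrogenic and an osteogenic factor and does not depend on library scaling, was described without a test. For each count of Sox9 there were 4.36, 3.41 and 4.58 counts of Runx2 in ERalphaKO E2 libraries, 2.97, 4.27, 5.56 and 2.87 in ERalphaKO placebo libraries, 6.94, 6.29 and 3.62 in WT E2 libraries and 3.97 and 2.81 in WT placebo libraries. The WT E2 libraries 1 and 2 held the most Runx2 per Sox9, and the third WT E2 library fell within the range of the other groups. The log2 ratio of Sox9 to Runx2 averaged −2.03 ± 0.23 in ERalphaKO E2, −1.91 ± 0.45 in ERalphaKO placebo, −2.43 ± 0.51 in WT E2 and −1.74 ± 0.35 in WT placebo libraries (SD). All 4 groups overlapped.

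**Figure D4:**
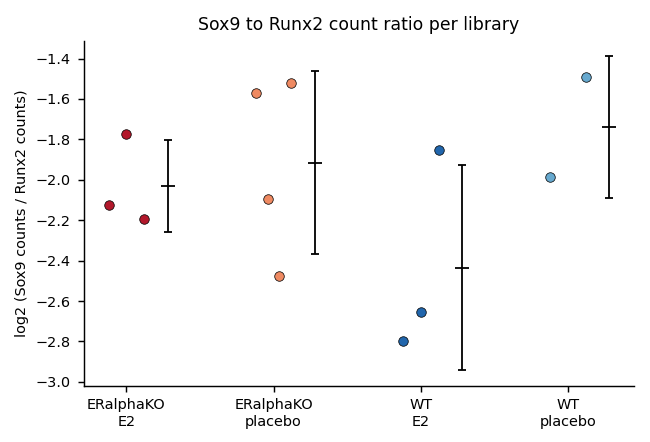
Log2 ratio of Sox9 counts to Runx2 counts per library (points) by group, with the mean and SD beside them. WT E2 is lowest on average, at −2.43, with a library at −1.86 inside the range of the other groups.

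Genes that these factors are known to switch on were examined as lists, since the level of a factor and that of its targets need not move together. Of 16 cartilage matrix genes known as SOX targets, 15 were tested, and edgeR called 0 in ERalphaKO over WT under E2, with 9 at an unadjusted p under 0.05 and 13 of 15 below 0. Over all genes tested 1.1% were called and 11.5% had an unadjusted p under 0.05 in this comparison. The list's median log2 fold change was −1.65, beside −0.04 for Sox9 itself and −0.00 for all genes. Col2a1, the main collagen of cartilage, was at 1160, 2570 and 1650 CPM in ERalphaKO E2 libraries and 5490, 4030 and 14800 CPM in WT E2 libraries. The 2 groups did not overlap, a lower placing that 8.94% of genes tested shared. The log2 fold change of Col2a1 was −2.18 ± 0.54 (edgeR adjusted p = 0.105). Fmod, a collagen-binding proteoglycan of fibrous tissue, was at 0.33 ± 0.18, and Acan, the large proteoglycan of cartilage, chosen after its values were seen, was at −0.01 ± 0.31. WT E2 replicate 3 had the most cartilage RNA, with 26500 CPM of chondrocyte and fibrocartilage markers, some of them on this list as well, and without it the list's median was −0.51. In the other comparisons of the design the list's median was 0.14 for the E2 effect in WT, −0.21 for that in ERalphaKO, −0.41 between genotypes under placebo and −0.57 for the difference of the E2 effects, with 0 genes called and 2, 0, 1 and 2 at an unadjusted p under 0.05. In ERalphaKO placebo over WT E2, chosen after seeing the data, 1 of the 15 fell, where 2.63% of all genes were called. That call was lost under several alternatives.

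Of 13 bone and hypertrophy genes known as RUNX2 or SP7 targets, 1 fell in ERalphaKO over WT under E2 and none rose, where 1.1% of all genes were called. It was Sost, which encodes sclerostin, the osteocyte inhibitor of Wnt signalling. Sost was at 68.2, 89.8 and 44.5 CPM in ERalphaKO E2 libraries, 58.9, 62.4, 82.8 and 46.7 CPM in ERalphaKO placebo libraries, 362, 162 and 296 CPM in WT E2 libraries and 149 and 95.9 CPM in WT placebo libraries. All ERalphaKO libraries were below all WT libraries, a placing found for 0.654% of genes tested, Runx2 among them. The log2 fold change under E2 was −2.02 ± 0.35 (edgeR adjusted p = 0.0211). The call was lost without WT E2 replicate 1 (adjusted p = 0.083) or 3 (0.0634), and without ERalphaKO E2 replicate 1 (0.104) or 3 (0.0921). Of the 13 genes 7 had an unadjusted p under 0.05 (11.5% of all genes), 6 were above 0 and 7 below, and the list's median was −0.20, or −0.03 without WT E2 replicate 3 and −0.09 without ERalphaKO E2 replicate 1. In the other comparisons of the design 0 of the 13 were called by edgeR, with 4 at an unadjusted p under 0.05 for the E2 effect in WT, 2 for that in ERalphaKO, 1 between genotypes under placebo and 2 for the difference of the E2 effects. In ERalphaKO placebo over WT E2, chosen after seeing the data, 3 of the 13 fell, where 2.63% of all genes were called. They were Sost (−2.12 ± 0.31, edgeR adjusted p = 0.00673), Ibsp (−1.20 ± 0.20, edgeR adjusted p = 0.0151), which encodes bone sialoprotein, and Alpl (−0.61 ± 0.12, edgeR adjusted p = 0.0249), the alkaline phosphatase of mineralizing cells. Leaving out WT E2 replicate 1 ended the Ibsp call (adjusted p = 0.0511), and the Alpl call was lost without WT E2 replicate 1 or 3 or ERalphaKO placebo replicate 1 or 4 (0.0576 to 0.115). Averaged over treatments 1 of the 13 fell, Sost (−1.49 ± 0.24, edgeR adjusted p = 0.0215), a call lost without either WT placebo library, WT E2 replicate 1, ERalphaKO placebo replicate 1 or ERalphaKO E2 replicate 1 or 3 (0.0503 to 0.156). Several of these genes are also osteoblast and osteocyte markers, whose sum was lower in ERalphaKO E2 libraries, though 4 of those 8 markers were higher. The part of cell makeup in the lower Sost was not tested.

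The partners and antagonists of RUNX2 held no called gene. Cbfb, the subunit with which every RUNX protein binds DNA, was at 228 CPM in ERalphaKO E2 libraries and 240 CPM in WT E2 libraries (log2 fold change −0.08 ± 0.11, edgeR adjusted p = 0.870). The 13 RUNX cofactors had a median of 0.05 in this comparison, with 0 called and 1 at an unadjusted p under 0.05. Of 12 RUNX2 antagonists 0 were called (1.1% of all genes) and 5 had an unadjusted p under 0.05 (11.5% of all genes), and the median was 0.01. The most expressed of them, Zfp521 and Twist1, were at 0.03 ± 0.17 and 0.32 ± 0.16.

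Among 30 other skeletal transcription factors, 1 fell in ERalphaKO over WT under E2 and none rose, where 1.1% of all genes were called. It was Mef2c, which drives chondrocyte hypertrophy upstream of Runx2 and acts on a Sost enhancer in osteocytes. Mef2c was at 224, 233 and 224 CPM in ERalphaKO E2 libraries and 304, 287 and 330 CPM in WT E2 libraries. These did not overlap, a lower placing that 8.94% of genes tested shared. The log2 fold change was −0.43 ± 0.08 (edgeR adjusted p = 0.0354), a size close to that of Runx2 with a smaller error. The call was lost without any single WT placebo or ERalphaKO E2 library, WT E2 replicate 1 or 3, or ERalphaKO placebo replicate 2 or 4 (adjusted p 0.0638 to 0.157). Mef2c is also expressed in skeletal muscle, whose markers summed to 7.77 to 42.2 CPM in ERalphaKO E2 libraries and 171 to 883 CPM in WT E2 libraries. With muscle markers as a covariate the log2 fold change was −0.39 ± 0.10, and the edgeR adjusted p was 0.143. The list's median was −0.09. Of 16 upstream signalling genes 15 were tested, since Shh had no count in any library. None of the 15 was called in ERalphaKO over WT under E2, 3 had an unadjusted p under 0.05 (11.5% of all genes), and the median was −0.11. The most expressed were Ctnnb1, the effector of Wnt signalling, at −0.05 ± 0.10, and the receptor Fgfr1 at −0.27 ± 0.14. In ERalphaKO placebo over WT E2, chosen after seeing the data, 3 of the 30 factors and 1 of the 15 signalling genes fell. Over all genes 2.63% were called there. Averaged over treatments 0 of the 30 and 1 of the 15 fell, where 0.978% of all genes were called. Each of these calls was lost under several alternatives.

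**Figure D5:**
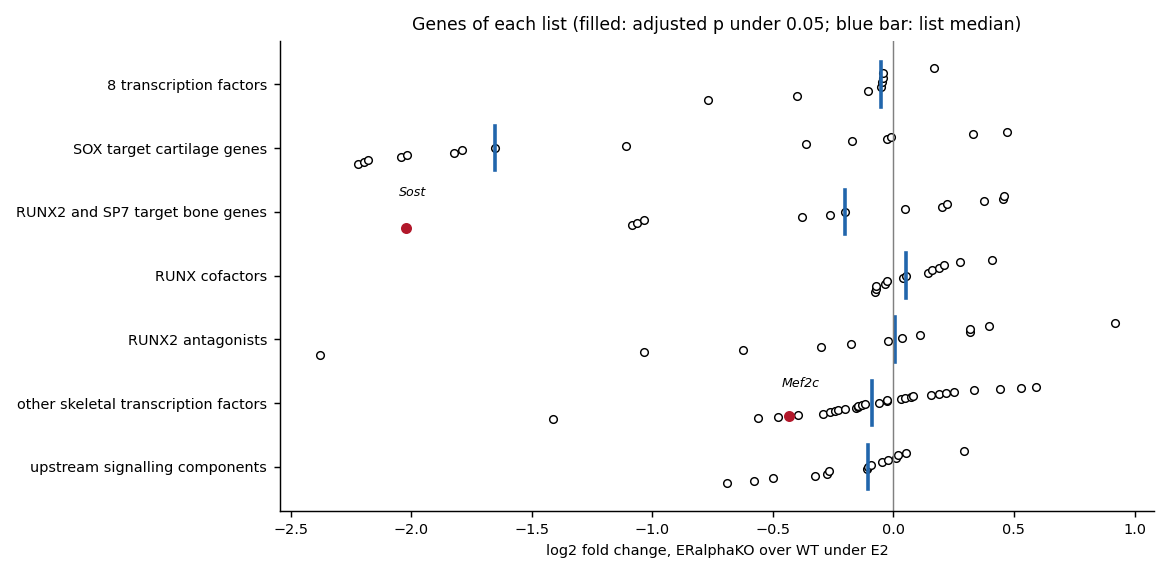
Log2 fold changes of ERalphaKO over WT under E2 (x axis) for the 8 transcription factors and 6 lists of related genes (rows); each point is a gene, blue bars are list medians, and filled points have an edgeR adjusted p under 0.05. Sost and Mef2c are the filled points, and the median of the SOX target list is −1.65 against −0.05 for the 8 factors.

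Genes whose log2 CPM followed each factor most closely over the 12 libraries were taken from 9375 tested genes with a mean of at least 10 CPM (9376 for Nkx3-2), with Pearson's r as a description. For Sox9 they were Hapln1 (r = 0.93), which encodes the link protein of the cartilage proteoglycan aggregate, Slc44a2 (0.89) and Adamts3 (0.89), a procollagen peptidase. For Sox5 they were Ino80, Creb3l2 and BC030336, with r of 0.93, 0.92 and 0.91, and for Sox6 Eif2c3 (0.94), Clcn6 and Fmn1 (0.92). For Runx2 they were Arl4c (0.96), Tacc1 (0.96) and Rgmb (0.93), a co-receptor for bone morphogenetic proteins. For Runx3 they were Camk1d (0.93), Slc26a2 (0.91), the sulfate transporter of cartilage, and Zdhhc20 (0.89). For Sp7 they were Tcf7 (0.93), a transcription factor of Wnt signalling, E2f5 (0.90) and Foxd2 (0.90). The Spearman values of Tcf7 and E2f5 were lower, at 0.68 and 0.49. For Runx1 the closest were Zfp110 (0.83), Srsf4 (0.82) and Ftsj3 (0.77), further off than for any other member, and for Nkx3-2 Scarb1 (0.91), Tmem63b (0.90) and Zfp385b (0.89). The genes of a library share its depth, scaling and group, and these values include that.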

How the data were processed

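Polyadenylated RNA with an RNA integrity number of at least 9 was sequenced as 100-base reads, per the labels' protocols. The submitters' processing notes name bcl2fastq 2.17, TopHat and genome build mm9. The tool and annotation behind the counts are not given in the sources used here. Whole-number counts per gene were deposited as a raw table. Log2 fold changes and p-values of 6 comparisons were deposited by the authors in the DESeq2 layout, per the file headers.

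The members and gene lists were chosen with earlier results of these data known. Groups follow the genotype and treatment labels. Genes passing the edgeR filter (minimum count 10) were fitted with 1 mean per group over 12 libraries, TMM scaling and the quasi-likelihood test (edgeR 4.0.16, R 4.3.3; 8 residual degrees of freedom, biological coefficient of variation 25.9%). P-values were adjusted by Benjamini-Hochberg within each comparison over all 14832 genes, with a threshold of 0.05. The standard error is the absolute log2 fold change over the square root of F. Log2 CPM used a prior count of 2. Named genes were Esr1, the 8 members, from each list up to 3 called genes or otherwise the 2 most expressed, and the 3 genes most correlated with each member, leaving out predicted genes. A gene that this rule names is not reported here. DESeq2 1.42.0, other scaling, no filter, a replicate block, marker covariates and leaving out each library were the alternatives. The scripts were tested on simulated data. Promoter windows came from RefSeq (GRCm38.p6). Their coordinates were not joined to the counts, which are on mm9.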

Additional observations from a re-analysis of the deposited data

How the results depend on the processing

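None of the 8 members was called in the 5 comparisons of the design under any alternative run, DESeq2 included (0 in each). In the comparisons chosen after seeing the data, the DESeq2 Wald test called 1 member, Runx2, in ERalphaKO placebo over WT E2 and 1, again Runx2, in genotype averaged over treatments, and every other alternative called 0. Runx2 stayed negative for ERalphaKO over WT under every alternative, at −0.49 to −0.29 under E2 (adjusted p 0.076 to 0.604), −0.33 to −0.19 under placebo, −0.52 to −0.33 for ERalphaKO placebo over WT E2 (adjusted p 0.0119 to 0.273) and −0.38 to −0.28 for the average (adjusted p 0.0228 to 0.448). Whether equal replicate numbers pair the samples was not settled. Of 15 same-numbered pairs 9 had a correlation of deviations over 0.1, and the range was −0.33 to 0.50. All pairs of replicate 2 were positive, at 0.21 to 0.47, and differently numbered pairs were not set beside them. With the replicate block, Runx2 was −0.39 under E2 (adjusted p = 0.339), calls were lost for Sost (−1.97, adjusted p = 0.078) and Mef2c (−0.43, adjusted p = 0.112) under E2 and for Esr1 under placebo (−1.81, adjusted p = 0.341), with folds close to those reported, and 62 genes were called for genotype under E2 and 18 for E2 in WT.

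Genes called over the table ranged widely: 1 to 246 around 68 for E2 in WT, 0 to 5 around 0 for E2 in ERalphaKO, 0 to 150 around 2 for genotype under placebo, 51 to 497 around 163 for genotype under E2, 0 to 102 around 8 for the difference of the E2 effect, 0 to 25 around 1 for ERalphaKO E2 over WT placebo, 108 to 1015 around 390 for ERalphaKO placebo over WT E2, and 13 to 591 around 145 for the average. With skeletal muscle marker level as a covariate, Sost was −1.98 ± 0.40 (adjusted p = 0.0745), with the fold hardly moved and the call lost. In ERalphaKO placebo over WT E2 the block ended the calls of Sost (−1.97, adjusted p = 0.0507), Ibsp (−1.13, adjusted p = 0.0772) and Alpl (−0.61, adjusted p = 0.0824), and the granulocyte covariate that of Alpl (−0.58, adjusted p = 0.062). For the average the block ended that of Sost (−1.39, adjusted p = 0.094). Esr1 under E2 had an adjusted p of 0.0549, and of 0.0019 by DESeq2 and 0.0371 without WT E2 replicate 2.

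Log2 fold changes near 0 changed sign, none of them called. For E2 in WT the replicate block gave Sox5 0.03, Sox6 0.05 and Sp7 0.03, and the muscle covariate gave Sp7 0.06. For E2 in ERalphaKO the block gave Sox9 0.02, and the muscle covariate gave Runx2 −0.05 and Sp7 −0.07. For genotype under placebo the block gave Sox5 0.04, the muscle covariate Runx3 0.02 and the granulocyte covariate Sox5 0.06 and Runx3 0.03. For genotype under E2 the granulocyte covariate gave Sox5 0.1, Sox6 0.17, Runx1 0.04 and Sp7 0.07. For the difference of the E2 effect the muscle covariate gave Sp7 −0.14, and the granulocyte covariate Sox5 0.03 and Sox6 0.01. Leaving out 1 library gave these ranges where the sign changed. For E2 in WT they were −0.26 to 0.23 for Sox5, −0.26 to 0.08 for Sox6, −0.06 to 0.25 for Runx1 and −0.12 to 0.05 for Sp7. For E2 in ERalphaKO they were −0.35 to 0.04 for Sox9, −0.26 to 0.03 for Sox5, −0.04 to 0.1 for Runx2, −0.21 to 0.02 for Runx3 and −0.02 to 0.25 for Sp7. For genotype under placebo they were −0.27 to 0.22 for Sox5, −0.09 to 0.23 for Sox6 and −0.11 to 0.12 for Runx3. For genotype under E2 they were −0.27 to 0.28 for Sox9, −0.26 to 0.03 for Sox5, −0.15 to 0.15 for Sox6 and −0.16 to 0.15 for Runx1. For the difference of the E2 effect they were −0.32 to 0.17 for Sox5, −0.28 to 0.11 for Sox6 and −0.05 to 0.89 for Nkx3-2, and for ERalphaKO placebo over WT E2 Nkx3-2 had −0.7 to 0.24. The causes were not tested. Nkx3-2 had the fewest counts of the members, 6 to 65 per library. A lone WT placebo library, left when the other was taken out, was assumed to vary like the other groups.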
